A study of Mus musculus with 8 samples.

Results

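The genes described here encode the proteins of the cytosolic ribosome, measured on Illumina mouse bead arrays in whole livers of 8 mice. Members were the genes whose symbol in the platform annotation starts with Rpl or Rps and a digit, together with Rplp0, Rplp1, Rplp2 and Rpsa. Symbols of the S6 kinases (Rps6k) and Rps19bp1 were left out. The rule found 65 of 16593 genes with a named probe, carried by 83 of 25697 probes. Of these, 40 encode large (60S) and 24 small (40S) subunit proteins or close paralogs. The remaining member, Rps23rg1, is a retrogene that arose from Rps23.

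The Mfn1 LKO group held the livers of 4 mice (637, 638, 651 and 701) with Mfn1 deleted in the liver. The control group held the livers of 4 mice (641, 658, 661 and 663) whose genotype is given as wildtype for Mfn1. All were of strain C57Bl6/Ntac. They had 8 weeks of high fat diet before a fast of 6 hours, and the labels give neither age nor sex. The titles of both groups name AlbCre, a Cre recombinase driven by the albumin promoter. It acts mainly in hepatocytes, and liver cells in which it is not active keep the gene. Whether the controls carried the Cre is not stated, so that an effect of Cre and the loss of Mfn1 cannot be told apart.

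A cytosolic ribosome joins a small subunit, which reads the messenger, to a large subunit, which forms the peptide bond. Its proteins are made in equal numbers from a scattered set of single genes, and their messengers begin with a run of pyrimidines (the TOP motif) through which mTORC1 controls their translation. In liver their translation follows feeding. Mouse genomes also hold many processed copies of these genes. The deposited tables hold no probe sequences, so that which copies a probe reads was not examined.

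Mfn1 was the check of the labels. Its log2 signal was 7.22, 7.06, 7.09 and 6.95 in Mfn1 LKO livers 637, 638, 651 and 701, against 8.64, 8.69, 8.58 and 8.57 in control livers 641, 658, 661 and 663. It fell by 1.54 on the log2 scale (SE 0.064, limma adjusted p = 4.05e-06), with no overlap, and was the only one of 8815 genes past an adjusted p of 0.05. Median raw signals of the 8 arrays lay between 96.4 and 103.9. Of the 6 hepatocyte markers 5 were tested, and 4 of these stood more than 1 log2 unit above the lowest signal of the arrays. The exception was the Alb probe.

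Promoters are shown for 5 members on which the results below turn. Rps3a1 and Rpl35a had the largest differences between the groups. Rpl37a and Rps27 were among the 3 genes that varied most closely with the other members from mouse to mouse. Rps2 had the lowest correlation with the other members, at -0.62. Each sequence runs 5′ to 3′ from 90 bases before to 30 after the first start site that RefSeq lists (GRCm38.p6). Capitals mark CGGAAG or its reverse complement CTTCCG, the core bound by ETS family factors, and CTTTCC, a pyrimidine run of the kind found at TOP starts.
Rps3a1 (chr3:86142639-86142758, minus strand): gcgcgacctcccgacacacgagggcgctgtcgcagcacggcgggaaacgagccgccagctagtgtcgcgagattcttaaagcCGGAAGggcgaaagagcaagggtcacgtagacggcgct
Rpl35a (chr16:33056363-33056482, plus strand): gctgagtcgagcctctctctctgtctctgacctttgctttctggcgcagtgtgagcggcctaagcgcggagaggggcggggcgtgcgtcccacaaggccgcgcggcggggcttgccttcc
Rpl37a (chr1:72711170-72711289, plus strand): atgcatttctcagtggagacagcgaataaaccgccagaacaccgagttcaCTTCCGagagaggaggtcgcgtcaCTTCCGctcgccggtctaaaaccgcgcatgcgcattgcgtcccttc
Rps27 (chr3:90213619-90213738, minus strand): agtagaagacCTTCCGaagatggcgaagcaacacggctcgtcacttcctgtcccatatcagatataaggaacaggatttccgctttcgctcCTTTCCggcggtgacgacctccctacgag
Rps2 (chr17:24719973-24720092, plus strand): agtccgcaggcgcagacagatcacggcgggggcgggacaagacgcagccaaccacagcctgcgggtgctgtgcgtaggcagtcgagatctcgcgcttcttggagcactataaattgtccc
Rpl37a held 2 ETS cores, Rps3a1 held 1, and Rps27 held 1 ETS core together with CTTTCC at 2 bases after the start. Neither motif lay wholly within the stretch shown for Rpl35a, for which RefSeq lists 3 starts, or for Rps2.

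Windows of 300 bases, from 250 before to 50 after the start, were available for 56 members. CGGAAG on either strand was found in 38 of the 56 (67.9%), against 17.2% of 27025 genes of the same table. CTTTCC on the gene's own strand within 50 bases of the start was found in 15 of 56 members (26.8%), against 4.67% of all genes. AAGATGG on either strand, a core bound by YY1, was found in 9 of 56 members (16.1%), against 6.48% of all genes. These matches describe the letters of the windows and do not show binding. The log2 fold change of the brighter members described below had a median of 0.041 in the 33 with CGGAAG and 0.028 in the 12 without it. With CTTTCC on the gene's strand near the start the median was 0.041 in 13 members, and without it 0.037 in 32. With CTTTCC on either strand of the whole window it was 0.013 in 22 members, and without it 0.064 in 23. With AAGATGG it was 0.072 in 8 members, and without it 0.032 in 37. These splits are given as values, and no difference between them was tested.

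Of the 65 members, 57 passed the filter on low signals and were tested. The 8 that did not pass, Rpl14, Rpl17, Rpl6, Rplp2, Rps23, Rps23rg1, Rpl39l and Rpl3l, each had 1 probe on the array, with mean log2 signals between 5.81 and 5.98. The lowest signal of all probes was 5.65. Rpl3l and Rpl39l are paralogs known from striated muscle and testis. Rpl6, Rpl14, Rpl17, Rplp2 and Rps23 belong to every ribosome, and their probes gave no usable measure of the transcript here. A further 5 tested genes (Rpl21, Rpl22l1, Rplp0, Rps15a and Rpsa) lay within 1 log2 unit of the lowest signal, where a difference understates the change in transcript. The other 52 members were brighter, and no member probe passed the filter through 1 group alone. Rpl7 and Rpl11 had no named probe in the tables used here.

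None of the 57 tested members passed an adjusted p of 0.05 with limma, against 0.0113% of all 8815 genes. At an unadjusted p under 0.05 there were 3 members, Rps3a1, Rpl35a and Rpl29, all higher in Mfn1 LKO livers, against 10.6% of all genes in either direction, 5.85% in the higher and 4.73% in the lower one. The log2 fold change was above 0 in 39 of 57 members, against 44.6% of all genes. The median was 0.032 over the members and -0.012 over all genes. Differences were small: 55 of 57 members lay within 0.2 log2 units of 0 and 92.1% of all genes did. The 95% interval lay within 0.5 log2 units of 0 in 55 of the 57 and in 94.0% of all genes. All Mfn1 LKO livers exceeded all control livers in 2 members, Rps3a1 and Rpl4, against 2.92% of all genes, and the reverse held for 0 members, against 3.2% of all genes. In either direction 6.11% of all genes were without overlap. The plot of fold changes with their intervals, with 1 probe per gene, shows how narrow the range was outside Rps3a1 and Rpl35a. Second probes of Rps9 and Rps3, described below, gave 0.60 and 0.32 and are not in that plot.

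**Figure D1:**
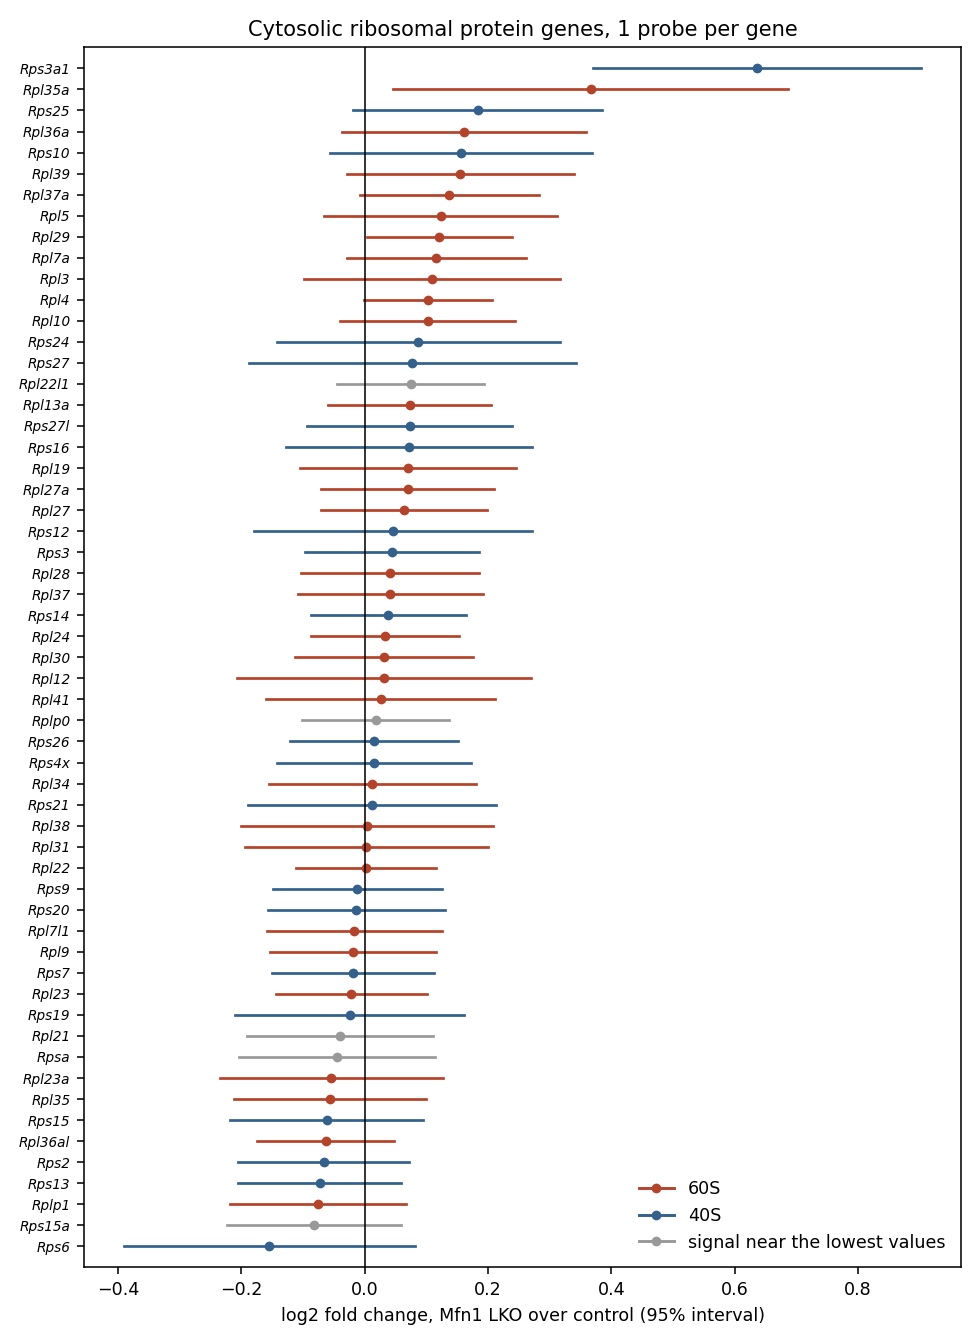
Log2 fold change of each of the 57 tested members, 1 probe per gene, Mfn1 LKO over control, as points with 95% intervals. Colours give the subunit, and grey marks a signal within 1 log2 unit of the lowest. Rps3a1 (0.64) and Rpl35a (0.37) stand apart, and 55 of the 57 points lie within 0.2 of 0.

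Among 34 tested 60S genes 26 were above 0 with a median of 0.037, and among 23 tested 40S genes 13 were above 0 with a median of 0.015. Among the 52 brighter members 37 were above 0, with a median of 0.035, where all genes more than 1 log2 unit above the lowest signal had a median of -0.018. Split by brightness, the dimmest 18 of these had a median of 0.056, the middle 17 had 0.032 and the brightest 17 had 0.026. Other genes in the same signal ranges had medians of -0.022, -0.011 and -0.010.

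Among the large subunit genes, Rpl35a had the largest difference. Its protein lies in the body of the 60S subunit, and inherited loss of 1 copy in humans causes Diamond-Blackfan anemia. Its log2 signal was 11.17, 11.36, 11.43 and 11.63 in Mfn1 LKO livers 637, 638, 651 and 701, against 11.17, 11.38, 10.79 and 10.79 in control livers 641, 658, 661 and 663. The groups overlapped, since controls 641 and 658 lay among the Mfn1 LKO livers, and controls 661 and 663 stood apart below. The log2 fold change was 0.37 (95% interval 0.046 to 0.69, adjusted p = 0.403), and it was 0.12 without controls 661 and 663 (adjusted p = 0.974). These controls were its lowest livers, so leaving them out had to lower the fold change, and fewer controls also weaken the test.

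Rpl29 encodes a 60S protein that mice can live without. It had 10.004, 10.04, 10.07 and 10.09 in the Mfn1 LKO livers, against 9.93, 10.03, 9.86 and 9.91 in the control livers, with control 658 inside the Mfn1 LKO range. The log2 fold change was 0.12 (95% interval 0.0031 to 0.24, adjusted p = 0.455). A second, dimmer probe of Rpl29 gave 0.14. Rpl4, whose protein reaches into the tunnel through which the new chain leaves, had 8.62, 8.55, 8.65 and 8.58 in the Mfn1 LKO livers, against 8.53, 8.47, 8.49 and 8.50 in the control livers. The groups did not overlap, but the difference was 0.10 (95% interval -0.0020 to 0.21, adjusted p = 0.480). Rpl39, a small protein that lines the same tunnel, gave 0.16 with 12.36 ± 0.14 in Mfn1 LKO and 12.21 ± 0.11 in control livers (SD, n = 4 each). Rpl36a, which lies by the exit site of the transfer RNA, gave 0.16 as well, while its paralog Rpl36al gave -0.063. Neither had an adjusted p under 0.570.

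Rpl37a had 11.67, 11.66, 11.85 and 11.85 in Mfn1 LKO livers 637, 638, 651 and 701, against 11.59, 11.72, 11.60 and 11.57 in control livers 641, 658, 661 and 663. Its difference of 0.14 (adjusted p = 0.496) came with a step of its own inside the Mfn1 LKO group, where 637 and 638 lay below control 658. Rpl7a gave 0.12, and Rpl3, which reaches the site of peptide bond formation, gave 0.11. The stalk, formed by Rplp0, Rplp1 and Rplp2, recruits the elongation factors. Only its member Rplp1 had a bright probe, with 13.37 ± 0.11 in Mfn1 LKO and 13.45 ± 0.064 in control livers, a difference of -0.076 (95% interval -0.22 to 0.067). The Rplp0 probe used gave 0.018 at a signal near the lowest, so that this gene, often chosen as a reference gene, could not be judged. Rpl5, which binds the 5S RNA and, when free, restrains Mdm2, had 11.87, 11.88, 12.12 and 12.13 in Mfn1 LKO livers 637, 638, 651 and 701, against 11.93, 12.01, 11.84 and 11.73 in control livers 641, 658, 661 and 663. Only 651 and 701 lay above all controls, and the log2 fold change was 0.12 (adjusted p = 0.653).

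Among the small subunit genes, Rps3a1 had the largest difference of all members. Its protein sits where the messenger leaves the 40S subunit. Its log2 signal was 8.80, 8.97, 8.97 and 9.04 in Mfn1 LKO livers 637, 638, 651 and 701, against 8.53, 8.53, 8.20 and 7.98 in control livers 641, 658, 661 and 663. Every Mfn1 LKO liver lay above every control liver, and the control livers spread over a wider range. The log2 fold change was 0.64 (SE 0.12, 95% interval 0.37 to 0.90), a 1.55-fold level, and the limma adjusted p was 0.177. Without controls 661 and 663 the difference was 0.42 (adjusted p = 0.972). Leaving out these lowest livers had to lower the difference, and fewer controls also weaken the test. Rps3a1 has a single probe on the array.

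Rps3a1 lies on chromosome 3, which also carries Mfn1, as measured gene 88 after it. Of the 3 other tested members on that chromosome, Rpl22l1 lies closer, as measured gene 8 before Mfn1, and gave 0.074 at a signal near the lowest. Rps27, as measured gene 149 after Mfn1, gave 0.077, and Rpl34, as measured gene 343, gave 0.012. The part of a shared chromosome in the Rps3a1 difference was not tested.

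Rps25, a 40S protein needed for initiation at some viral internal entry sites, gave 0.18 (95% interval -0.019 to 0.39), with 10.46, 10.40, 10.38 and 10.74 in the Mfn1 LKO livers, against 10.24, 10.39, 10.43 and 10.19 in the control livers. The highest value, in mouse 701, stood apart. The others lay near the controls, of which 661 exceeded 638 and 651. Rps10, at the beak of the 40S subunit, gave 0.16 with 10.74 ± 0.17 in Mfn1 LKO and 10.58 ± 0.14 in control livers. Rps6, the substrate of the S6 kinases downstream of mTORC1, had the largest difference in the lower direction. It had 10.99, 10.67, 10.67 and 11.13 in Mfn1 LKO livers 637, 638, 651 and 701, against 11.07, 11.12, 10.94 and 10.95 in control livers 641, 658, 661 and 663. Only 638 and 651 lay below the controls, 701 lay just above all of them, and the difference of -0.15 had a 95% interval from -0.39 to 0.081 (adjusted p = 0.649). The array measures transcript and says nothing of Rps6 phosphorylation.

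Rps13 gave -0.073, Rps2, which lies by the entry of the messenger channel, gave -0.067, and Rps15a gave -0.083 at a signal near the lowest. None of these had an adjusted p under 0.687. Rps19, the gene most often mutated in human Diamond-Blackfan anemia, gave -0.025 (95% interval -0.21 to 0.16). The Rpsa probe used, near the lowest signal, gave -0.045. Among further paralogs, Rps27l, which p53 can induce, gave 0.073 beside 0.077 for Rps27, Rpl22l1 gave 0.074 beside 0.0017 for Rpl22, and Rpl7l1 gave -0.017.

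For 15 members the array carries several probes, and the kept probes differed most in Rps9 and Rps3. The probes of Rps9, a 40S protein of decoding fidelity, were almost equally bright, with mean log2 signals of 10.47 and 10.45. The slightly brighter one had 10.42, 10.39, 10.43 and 10.63 in Mfn1 LKO livers 637, 638, 651 and 701, against 10.43, 10.49, 10.48 and 10.52 in control livers 641, 658, 661 and 663, a difference of -0.012. The second had 10.47, 10.67, 10.94 and 10.92 in the Mfn1 LKO livers, against 10.46, 10.55, 9.90 and 9.72 in the control livers. This probe gave 0.60 (95% interval 0.18 to 1.01, adjusted p = 0.300 over 12755 probes), and again controls 661 and 663 lay far below while 641 and 658 lay among or beside the Mfn1 LKO livers. Without these 2 controls the second probe gave 0.25.

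The probes of Rps3, a 40S protein of the messenger entry that also acts in DNA repair, differed in the same way. The brighter one gave 0.044, and the second gave 0.32 (adjusted p = 0.429), with 9.07, 9.30, 9.36 and 9.24 in Mfn1 LKO livers 637, 638, 651 and 701, against 9.22, 9.14, 8.60 and 8.72 in control livers 641, 658, 661 and 663. Without controls 661 and 663 the second probe gave 0.062. Which part of either transcript each probe reads was not examined. The 3 kept probes of Rpl23 gave -0.022, 0.11 and 0.010, those of Rpl31 gave 0.0027 and 0.039, and those of Rpl38 gave 0.0035 and 0.033.

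**Figure D2:**
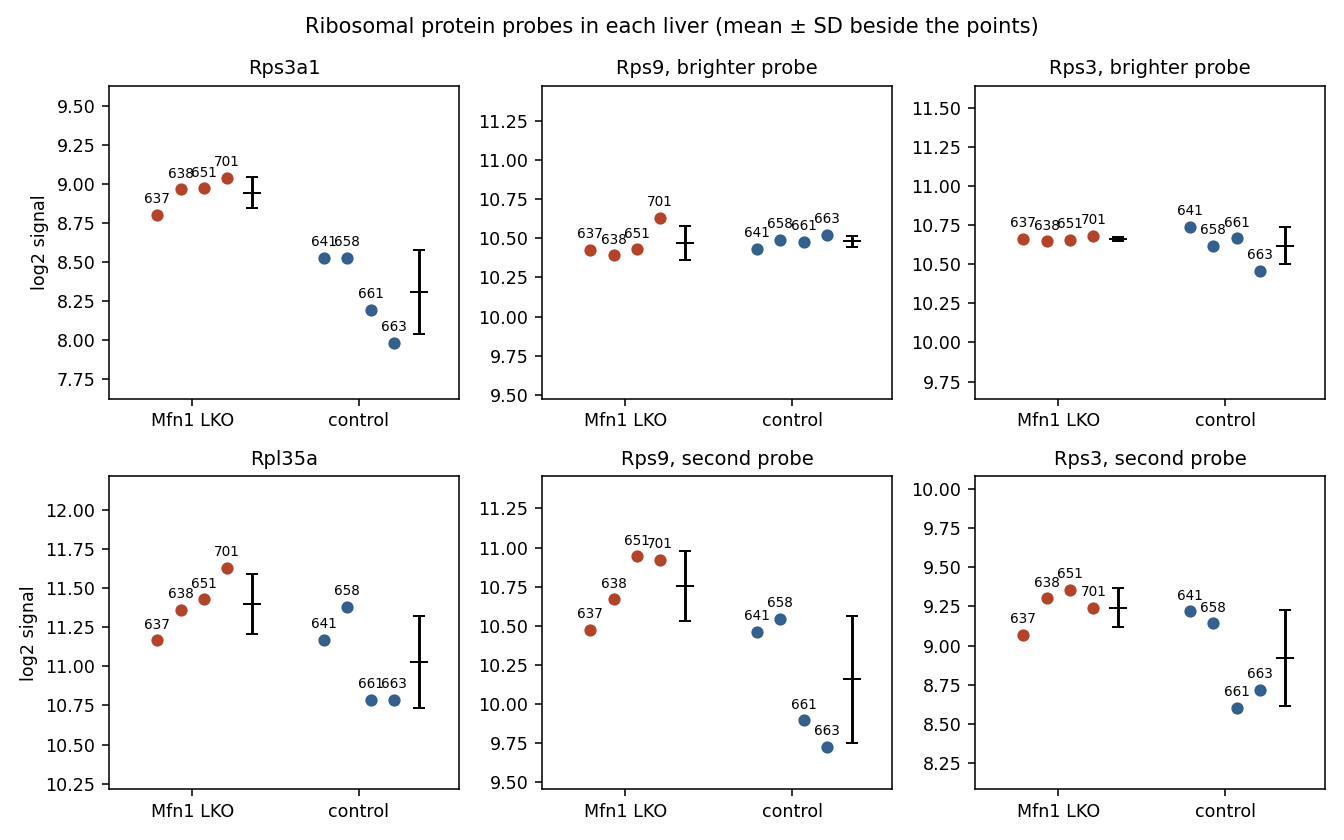
Log2 signal of 6 probes in each liver, Mfn1 LKO left and control right, with the mouse number above each point and mean ± SD beside the points, on axes of equal length. Controls 661 and 663 are the 2 lowest of the 8 livers for Rps3a1, Rpl35a and the second probes of Rps9 and Rps3, and are not the 2 lowest for the brighter probes of Rps9 and Rps3.

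Controls 661 and 663 were the 2 lowest livers of the 8 in 12 of the 68 kept member probes (17.6%) and in 925 of all 12755 kept probes (7.25%). Besides the 4 probes in the plot of single probes these were probes of Rpl36a, Rpl39, Rpl5, Rpl29, Rpl7a, Rpl10, Rpl22l1 and Rpl27. This pair of livers was singled out after the values were seen. For the 12 probes in which it was lowest, leaving it out had to lower the fold change. Without controls 661 and 663, 36 of 57 members were above 0, with a median of 0.020, against 49.4% of all genes. In that fit 1 member had an unadjusted p under 0.05, against 415 of all 8815 genes.

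From mouse to mouse the members varied together. For each of the 52 brighter members the log2 signal was set against its own mean over the 8 livers, and these deviations were averaged per liver. The mean deviation was -0.056, -0.045, 0.10 and 0.10 in Mfn1 LKO livers 637, 638, 651 and 701, against -0.027, 0.035, -0.071 and -0.042 in control livers 641, 658, 661 and 663. The Mfn1 LKO group was thus split, with 651 and 701 above every control and 637 and 638 below control 641. The split varied with brightness. In the dimmest 18 of these members 637 was at 0.0018, above control 641 at -0.020, and 651 was at 0.040. In the middle 17 livers 637, 641 and 651 were at -0.088, -0.038 and 0.14, and in the brightest 17 at -0.086, -0.022 and 0.13. Over all 8815 genes the same means lay within 0.0092 of 0, which quantile normalization of the arrays brings about by itself. Liver 651 was the highest of the 8 in 21 of the 52 members and liver 701 in 19, while 637 was the lowest in 12 and 638 in 11. The group means were 0.026 ± 0.089 in Mfn1 LKO and -0.026 ± 0.045 in control livers (SD, n = 4 each), so the difference of 0.052 was smaller than the spread among the Mfn1 LKO mice. Without 651 alone 33 of 57 members were above 0, without 701 alone 31, and without both 19, with a median of -0.028. Of all genes 44.2%, 45.1% and 44.1% were above 0 in these 3 fits. These livers were chosen because they were the highest, so leaving them out had to lower the count.

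**Figure D3:**
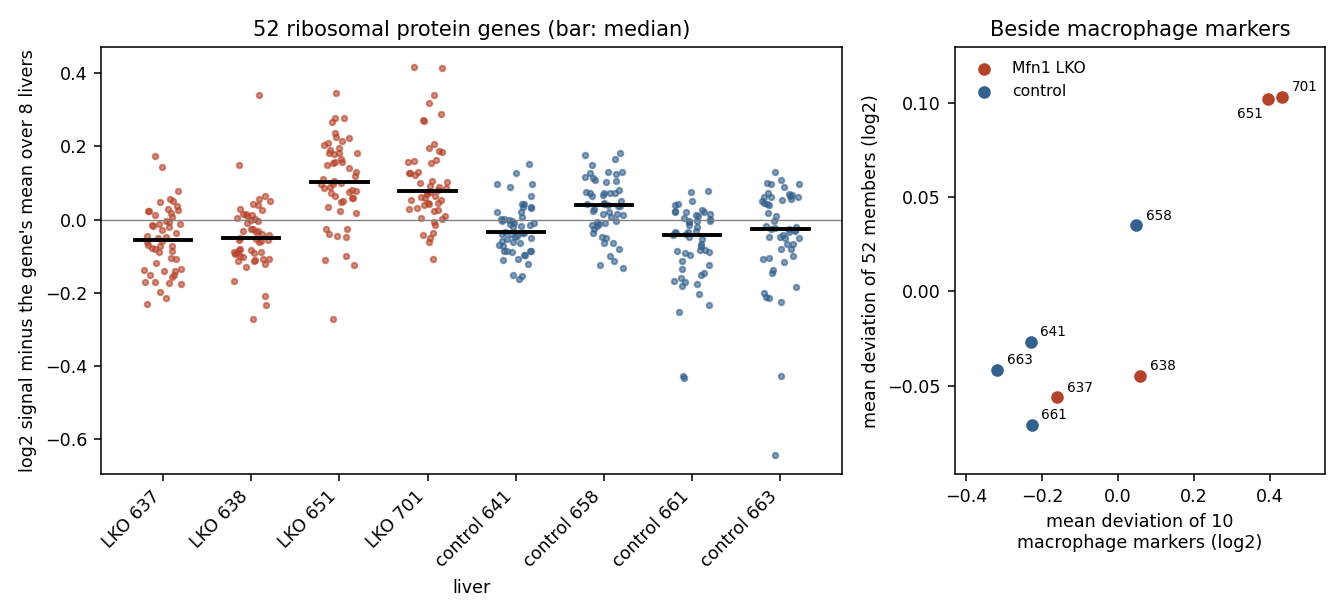
Left, log2 signal of each of the 52 brighter members minus the gene's mean over 8 livers, as points per liver with the median as a bar. Right, mean deviation of the members against that of 10 macrophage markers, 1 point per liver. Mfn1 LKO livers 651 and 701 lie highest on both measures.

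Macrophage markers were also high in livers 651 and 701. Of 13 listed, 10 were tested and all 10 had a log2 fold change above 0, with a median of 0.31, though none passed an adjusted p of 0.05. Their mean deviation was -0.16, 0.058, 0.40 and 0.43 in Mfn1 LKO livers 637, 638, 651 and 701, against -0.23, 0.048, -0.23 and -0.32 in control livers 641, 658, 661 and 663. Of these markers 2 (Ctss and Timd4) lay near the lowest signal, and the Kupffer cell markers Adgre1, Clec4f and Vsig4 stood clear of it. Livers 651 and 701 were the highest in both sets. Neutrophil markers, of which 4 of 6 tested lay near the lowest signal, averaged from -0.34 to 0.78 in Mfn1 LKO livers and from -0.35 to 0.27 in control livers, with 701 highest. Stellate cell markers, of which 5 of 8 lay near the lowest signal, averaged -0.23, -0.071, 0.27 and 0.088 in Mfn1 LKO livers 637, 638, 651 and 701, against -0.043, 0.098, -0.10 and -0.0070 in control livers 641, 658, 661 and 663. Liver 651 was the highest of the 8 in 6 of these 8 markers. Red cell markers averaged 0.64 in liver 701 and -0.27 in liver 651, and endothelial markers 0.058 and 0.048. Hepatocyte markers, of which 1 of 5 tested lay near the lowest signal, averaged -0.030, -0.094, 0.078 and 0.11 in Mfn1 LKO livers 637, 638, 651 and 701. In control livers 641, 658, 661 and 663 they averaged -0.043, 0.094, 0.060 and -0.17. All 4 tested lymphocyte and both tested bile duct markers lay near the lowest signal. The part of these cells in the ribosomal protein values was not tested. In whole liver, more cells of a type and more transcript per cell cannot be told apart.

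The closeness of the members was described by correlation. Each group's mean was taken from its 4 livers, and each member was correlated with the mean of the other 51 over the 8 livers, which leaves the group difference out. The coefficient was above 0.5 in 33 of 52 members, with a median of 0.71. It was above 0.5 in 889 of 5419 other genes (16.4%), with a median of -0.048. These other genes were all those more than 1 log2 unit above the lowest signal and were not matched to the members in brightness. The part of brightness in the members' coefficients was not tested. The points of each coefficient are 8 arrays, and genes on an array share its labelling and scaling. Without livers 637 and 701, the farthest from the middle, it was above 0.5 in 36 members and 19.6% of other genes. The highest coefficients were those of Rps14 (0.98), Rpl37a (0.96) and Rps27 (0.95). Rps27 had 11.89, 11.80, 12.24 and 12.35 in Mfn1 LKO livers 637, 638, 651 and 701, against 11.96, 12.14, 11.95 and 11.93 in control livers 641, 658, 661 and 663, a spread of 0.27 (SD) in Mfn1 LKO against 0.098 in control livers and a log2 fold change of only 0.077.

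The members apart from the common course were few. Coefficients below 0 were found in 4 of 52, namely Rps2 (-0.62), the paralogs Rpl7l1 (-0.53) and Rps27l (-0.052), and Rpl23 (-0.044). Rps2 had 12.41, 12.39, 12.26 and 12.34 in Mfn1 LKO livers 637, 638, 651 and 701, against 12.53, 12.33, 12.46 and 12.34 in control livers 641, 658, 661 and 663, so that 651 was its lowest liver. Rps3a1, with the largest group difference, had a coefficient of 0.46, and Rpl4, the other member without overlap, had 0.11. Macrophage markers had coefficients above 0.5 with the members' mean in 6 of 8 brighter genes, and hepatocyte markers in 0 of 4.

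**Figure D4:**
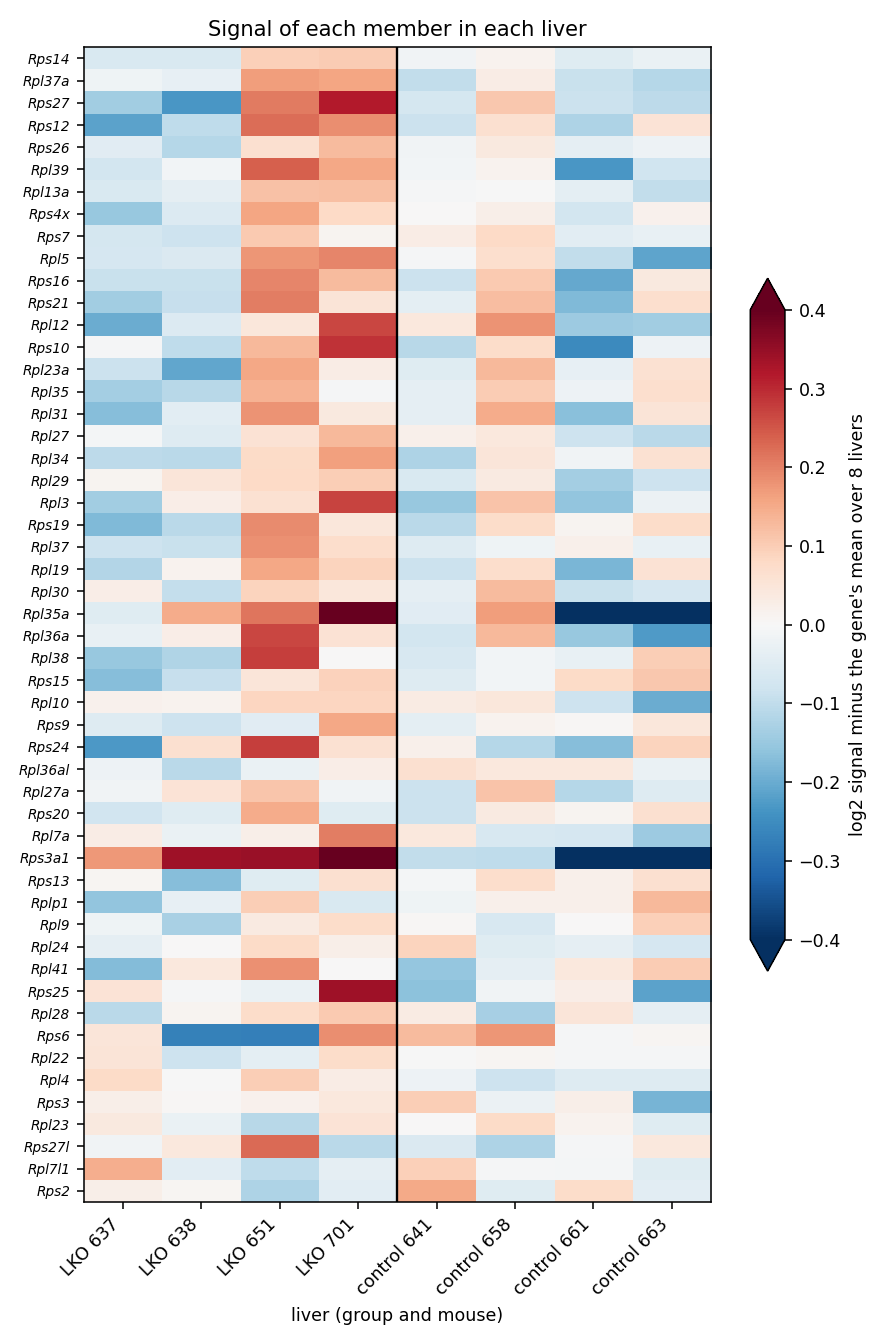
Log2 signal of the 52 brighter members in each liver minus the gene's mean over 8 livers, with colours clipped at 0.4 in either direction and genes ordered from the highest (top) to the lowest correlation with the other members. Livers 651 and 701 are red for most genes in the upper part, and Rps3a1 is red in all 4 Mfn1 LKO livers and blue in all 4 control livers.

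Other genes of protein synthesis, from lists of known function, were set beside the members. Of other transcripts with a TOP start, 10 of 18 tested were above 0, with a median of 0.022, and 8 of 15 brighter ones had a coefficient above 0.5 with the members' mean. This list overlaps that of the elongation factors, and Eef1b2, described below, is in both. Naca, a subunit of the complex that meets new chains at the tunnel exit, gave 0.25 (adjusted p = 0.254) without overlap of the groups. The list of elongation factors also held the release factors Etf1 and Gspt1, the kinase Eef2k, the synthetase partner Eef1e1 and the mitochondrial Tsfm. Of its 10 tested genes 5 were above 0, and Eef1b2, which recharges the factor that delivers transfer RNA, was the farthest. Eef1b2 had 10.01, 10.08, 10.33 and 10.31 in Mfn1 LKO livers 637, 638, 651 and 701, against 9.89, 9.85, 9.64 and 9.72 in control livers 641, 658, 661 and 663, and a log2 fold change of 0.40 (adjusted p = 0.206). All Mfn1 LKO livers lay above all control livers. Eef1e1 gave 0.081, and the translocation factor Eef2 gave -0.025.

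Initiation factors were above 0 in 12 of 27, with Eif3k at 0.35 and Eif3c at 0.20, both subunits of the scaffold that binds the 40S subunit. Ribosome assembly genes were above 0 in 22 of 45, with a median of -0.0060. The helicase Ddx21 gave 0.26 and Rrp8, near the lowest signal, gave 0.15. RNA polymerase I genes, which make the ribosomal RNA, were above 0 in 5 of 11. The factor Ubtf, which opens those genes, gave -0.20, and Twistnb, a subunit of the polymerase, gave 0.11. Of the genes of mTORC1 and the S6 kinases 6 of 20 were above 0, with Lamtor2, of the lysosomal anchor of mTORC1, at 0.35 and Sesn2, a sensor that restrains it, at -0.12 near the lowest signal. None of these genes passed an adjusted p of 0.05. Fau, the only further cytosolic ribosomal protein gene tested under another name, gave -0.0096.

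The mitochondrial ribosome, which translates the mitochondrial genome, has its own set of nuclear genes. Of 76 on the array 70 were tested, 38 were above 0 and the median was 0.010. Mrpl20 gave 0.45 (adjusted p = 0.177) and Mrps15 gave 0.32, both without overlap of the groups. Their coefficient with the mean of the cytosolic members was above 0.5 in 4 of 65, with a median of -0.19. Their mean deviation was 0.059, 0.014, -0.032 and 0.0090 in Mfn1 LKO livers 637, 638, 651 and 701, against 0.0080, -0.014, -0.029 and -0.015 in control livers 641, 658, 661 and 663. Liver 651, among the highest for the cytosolic set, was the lowest of the 8 for the mitochondrial set. Control 661, the lowest for the cytosolic set, lay close to it at -0.029.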

How the data were processed

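The deposited linear intensities held 1 value for each of 25697 probes in 8 arrays, with no detection p-values or control probes. The authors deposited log2 values as well, which lay within 0.0066 of log2 intensities quantile normalized without background subtraction. RNA was extracted with a bead-based kit and amplified with biotin, per the labels' protocols. The scanner software is not given. The tables held 0 columns of other samples.

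Intensities were corrected with limma's normexp (offset 50), put on the log2 scale and quantile normalized. A probe was kept where at least 4 of 8 arrays had it above the median of the array (12755 probes), and the brightest kept probe stood for each gene (8815 genes). Groups, from the sample titles, were compared with the two-sided lmFit and eBayes test of limma 3.58.1 in R 4.3.3. The adjusted p is Benjamini-Hochberg's over all genes or, for single probes, over all kept probes. Gene p-values measure the spread between mice, and 4 arrays a group limit the precision. The fit was tested on simulated data. Each fold change is that of Mfn1 LKO over control, and the offset shrinks those of dim genes.

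Gene names came from the platform annotation, and all 65 members matched RefSeq (GRCm38.p6) by gene ID. Named members were the 10 higher and 6 lower with the smallest p, the stalk, 5S particle, Rps6, Rpsa and Rps19 genes, paralogs with their partners, and genes whose probes differ in sign. For related lists the 2 genes with the smallest p were named, and other names were chosen after their values were seen. Members and lists were chosen with earlier results of these data known. Alternatives changed the background step, scaling, filter, probe rule, variance model or mice. Figures were drawn with matplotlib 3.10.9.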

Additional observations from a re-analysis of the deposited data

Results flagged for a closer look

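In 3 of 58 groups of 4 livers tested with Dixon's rule, 1 liver stood far from the others by the gap over the range, which chance gives in about 1 of 20 such groups. Rps27 was 12.14 in control liver 658, where the other control livers lay between 11.93 and 11.96. Rps15a, at a signal near the lowest, was 6.28 in control liver 661, where the others lay between 6.08 and 6.12. The brighter probe of Rps9 was 10.63 in Mfn1 LKO liver 701, where the other Mfn1 LKO livers lay between 10.39 and 10.43.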

How the results depend on the processing

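No member passed an adjusted p of 0.05 under the main settings or any of 21 alternatives, and the lowest adjusted p was 0.125, for Rps3a1 with array weights. The number of members with an unadjusted p under 0.05 was 3 under the main settings, where 933 of 8815 genes had such a p. It was 5 with no background correction (957 genes), cyclic loess (924 of 8818), the deposited log2 values (957) and the mean of probes (916). With no filter 5 of 65 members and 1368 of 16593 genes had such a p. The number was 2 with an offset of 16 (910 genes) and with the trended, robust variance model (889). It was 3 with a common median (418), a common 75th percentile (646), array weights (1139) and the filter on all arrays (852 of 7420). Leaving out each mouse in turn gave between 1 (without control 663) and 5 (without control 658 or Mfn1 LKO 637) members with such a p. Between 31 and 44 members were then above 0, with a median between 0.011 and 0.065. In the same fits 43.3% to 48.0% of all genes were above 0, and 613 to 1081 of 8815 had an unadjusted p under 0.05. Members with such a p numbered 1 without controls 661 and 663 together, where 415 of 8815 genes had one. They also numbered 1 without Mfn1 LKO mice 651 and 701 together, where 667 of 8815 genes had one. Without the latter pair 19 members (median -0.028) and 44.1% of all genes were above 0. Both pairs were chosen after seeing the data. Members above 0 were 34 of 57 (59.6%) with a common 75th percentile and 44 of 57 (77.2%) with cyclic loess, where 39.3% and 49.4% of all genes were above 0. The median of all genes lay between -0.024 and -0.0012 under the scalings tried. Of 29 named members 18 kept their sign in every alternative, and 37 of 607 comparisons changed sign, in the other 11 (Rpl3, Rpl5, Rpl7l1, Rpl22, Rpl23, Rplp0, Rps9, Rps19, Rps24, Rps27 and Rpsa). With the mean of probes Rps9 gave 0.29. No paired analysis was made, because the labels give no pairing of mice and no batch. The signal limits what can be seen: 5 tested members lay near the lowest signal, where differences are understated.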
